A study of Mus musculus with 11 samples.

Results

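Glutathione and antioxidant enzymes keep peroxides, superoxide and reactive electrophiles in check, and 47 genes that encode them were compared here across 3 regions of the mouse testis. The genes were taken by name: the glutathione transferase (GST) classes alpha, kappa, mu, omega, pi, theta and zeta, the microsomal GSTs, the glutathione peroxidases, the peroxiredoxins, the thioredoxin reductases, the superoxide dismutases, and *Cat*, *Gclc*, *Gclm*, *Gss*, *Gsr*, *Nqo1* and *Hmox1*. They are 47 of 18194 genes with a probe set of their own on the array and hold 81 of 45101 probe sets, of which the 1 with the highest mean log2 signal stood for each gene. Another 6 probe sets whose annotation joins a gene of these names with a further gene were left out.

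RNA came from 7-week-old W/Wv mice, whose Kit mutations leave the testis nearly without germ cells, so every array holds the same genotype and age and no wild-type or treated animals entered. The regions were the rete testis (RT), the epithelial network into which all tubules drain, the Sertoli valve (SV), the narrow end of the tubule next to the RT, and the convoluted seminiferous tubule (ST), the long part away from the RT, which was the reference. Each of 3 RT, 4 SV and 4 ST arrays was hybridised with RNA pooled from 20 testes, cut apart by hand after trypan blue had been injected through the efferent ducts. The study's methods state that SV pieces probably carried some RT cells. The p-values measure only the spread between such pools, and in bulk pieces fewer cells of a type and less RNA per cell cannot be told apart.

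Glutathione is a small thiol peptide made by glutamate-cysteine ligase and glutathione synthetase and kept reduced by glutathione reductase. GSTs join it to reactive electrophiles, while glutathione peroxidases spend it to reduce hydrogen peroxide and lipid peroxides. Superoxide dismutases, catalase and the thioredoxin-fed peroxiredoxins handle other steps of the same defence. In the testis GSTs are long known from Sertoli cells, the somatic cells of the tubule, and *Gpx5* is a secreted peroxidase of the epididymis.

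The labels were set beside cell type markers first, with a marker called past 2-fold at an adjusted p under 0.05 (limma). The marker lists were chosen with earlier results of these data known, so they are no independent check of the labels. All 11 measured markers of the RT epithelium, such as *Krt8*, which encodes a keratin, and *Cdh1*, which encodes E-cadherin, had higher signals in RT than in ST, as did 9 of them in SV. Their summed signal was 31391 to 44776 in RT, 4817 to 11037 in SV and 843 to 1267 in ST. Sertoli cells had 14 measured markers, 8 of them lower in RT than in ST and 0 lower in SV (limma; 2 past 2-fold at an unadjusted p under 0.05, *Rhox5* and *Fshr*), and their summed signal ran from 64102 to 84606 in RT, from 105874 to 141633 in SV and from 128574 to 167743 in ST. Markers of the efferent ducts and epididymis were higher in RT for 6 of 10, with a summed signal of 11586, 11352 and 5433 in the RT arrays, while *Gpx5*, *Lcn5* and *Adam28* stayed under 50 in every array. Of the other lists, 4 of 7 endothelial markers were higher in RT, 3 of 7 myoid markers and 1 of 4 erythrocyte markers were lower, 1 of 10 germ cell markers was higher and 3 lower, and 0 of 5 Leydig cell and 0 of 8 macrophage markers passed in either direction, nor past 2-fold at an unadjusted p under 0.05. Arrays 1 and 2 of every region stood apart from arrays 3 and 4, with the 18S ribosomal control at 20675 to 32135 against 6064 to 12751. The control for the 5' end of beta-actin read 15939 to 26025 against 11401 to 13747. That for its 3' end read 21103 to 33969 against 21296 to 28268. RT has no array 4. A fit with arrays 1 and 2 as one block and the others as another is given at the end. The part of this split in the differences between regions was not tested further.

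RT differed most from ST among the antioxidant genes, and it differed in both directions. At over 2-fold and an adjusted p under 0.05, 8 of 47 genes (17%) were higher in RT, against 12.5% of all genes, and 4 of 47 (8.51%) were lower, against 7.34% of all genes. The higher genes were *Gpx3*, *Gpx8*, *Gstm5*, *Gstt1*, *Gstt3*, *Gstt2*, *Gpx7* and *Cat*, and the lower genes were *Gstm6*, *Gsta2*, *Gsta4* and *Mgst3*. All 4 lower genes encode GSTs, and of the 23 GST genes 4 others were higher. The median log2 difference was 0.05 over the 47 genes and 0.08 over all genes. Of the 47 differences 24 were above 0 and 23 below. With every array centred on its median the count became 6 higher and 7 lower, and with quantile normalization 7 and 5, while the share of higher among all called genes went from 63% to 34.8% and 51.8%. After centring the lower genes included *Prdx2* (-1.02) and *Txnrd3* (-1.12). The median of all probe sets lay at 0.13 on the log2 scale as deposited, at -0.29 after centring and at -0.07 after quantile normalization.

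**Figure D1:**
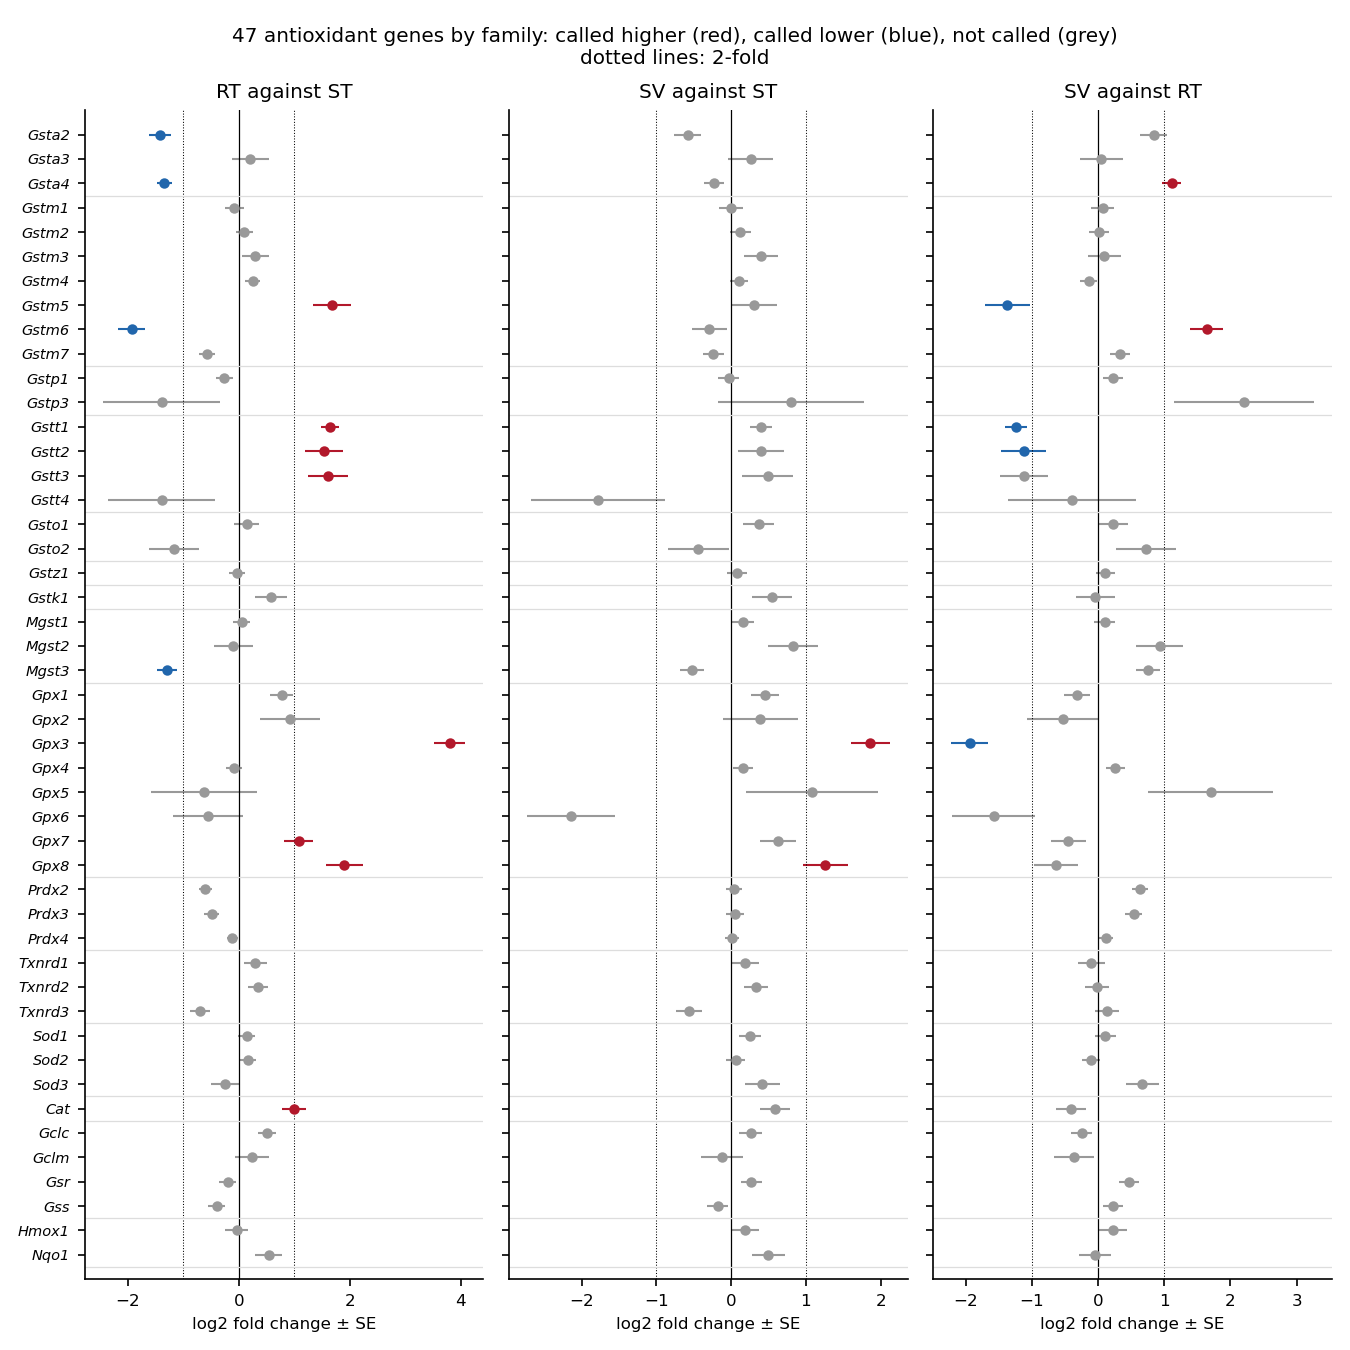
Log2 fold change with its limma standard error of each of the 47 genes in RT against ST (left), SV against ST (middle) and SV against RT (right), ordered by family, with the dotted lines at 2-fold and coloured points for genes that passed the test. In the left panel 8 genes lie to the right and 4 to the left in colour, in the middle panel only *Gpx3* and *Gpx8* are coloured, and the wide bars belong to genes with mean signals near or under 50, such as *Gpx5*, *Gpx6*, *Gstt4* and *Gstp3*.

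The largest difference was that of a peroxidase. *Gpx3* (probe set 1449106_at), the selenoenzyme secreted into extracellular fluid, had a signal of 9011, 8714 and 5569 in the RT arrays, 2864, 2260, 1101 and 2132 in the SV arrays, and 556, 683, 495 and 470 in the ST arrays. The 3 regions did not overlap, with RT highest and ST lowest. The log2 difference of RT from ST was 3.80 ± 0.28 (SE; adjusted p = 1.26e-06), or 13.9-fold. It stayed between 3.68 and 4.02 when any of the 11 arrays was left out.

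*Gpx8* (1424099_at) encodes a peroxidase of the endoplasmic reticulum membrane. Its signal was 2503, 2171 and 1855 in RT, 1980, 1573, 721 and 1640 in SV, and 816, 732, 359 and 519 in ST. RT and ST did not overlap, and the third SV array lay among the ST arrays. RT exceeded ST by 1.90 ± 0.33 on the log2 scale (adjusted p = 7.51e-04). *Gpx7* (1417836_at), its relative inside the endoplasmic reticulum, was higher in RT by 1.08 ± 0.26 (adjusted p = 0.00713), a call that was lost at 0.91 without the third ST array, at 0.92 after quantile normalization, at 0.66 after median centring (adjusted p = 0.107) and at 0.84 with replicates 1 and 2 only.

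The other peroxidases did not pass 2-fold. *Gpx1*, the cytosolic enzyme, was 0.77 ± 0.20 higher in RT on the log2 scale (adjusted p = 0.0117), below the fold threshold though its RT and ST arrays did not overlap. *Gpx4*, which reduces lipid peroxides in membranes, differed by -0.09 ± 0.14. *Gpx2*, *Gpx5* and *Gpx6* had mean signals under 50 in all 3 regions, as did *Gstt4*, so these 4 of the 47 genes carry little information. The epididymal *Gpx5* was thus dim in RT too, with signals of 6.51, 13.1 and 6.29.

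Catalase, which splits hydrogen peroxide, sat at the threshold. *Cat* (1416429_a_at) gave 5376, 4866 and 4812 in RT, 5021, 4860, 2453 and 3366 in SV, and 2335, 2584, 3072 and 2119 in ST. RT and ST did not overlap, and the SV arrays spread over both. The log2 difference of RT from ST was 1.00 ± 0.22 (adjusted p = 0.00421), or 2-fold. Its second probe set gave 1.01 ± 0.23, but the first fell under 2-fold without the first RT array (0.95), the first ST array (0.97) or the fourth ST array (0.92), with the replicate number as a block (0.93, adjusted p = 0.00404) and after median centring (0.58, adjusted p = 0.104).

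**Figure D2:**
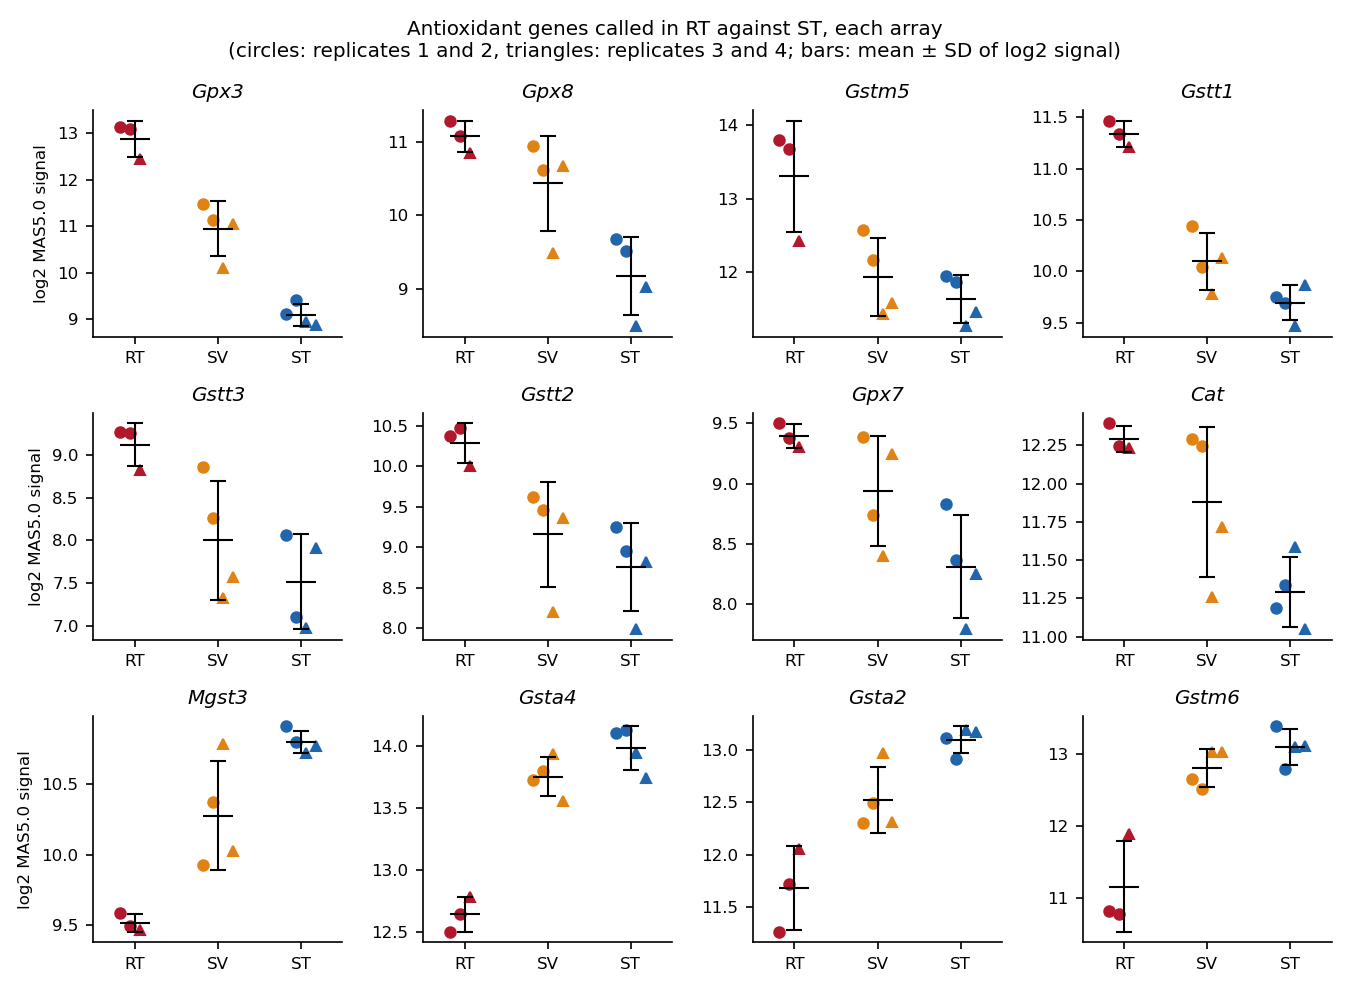
Log2 MAS5.0 signal of the 12 antioxidant genes called in RT against ST, 1 panel each with its own axis range, with a point per array (circles for replicates 1 and 2, triangles for 3 and 4) and bars for the mean and SD of the region. The genes were picked by their call in RT against ST, so RT points clear of ST points follow largely from that choice. Some genes without a call, such as *Gpx1* and *Prdx2*, show the same. SV points reach into the range of ST for 11 genes and are clear of both regions for *Gpx3*.

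Of the GSTs that were higher in RT, 3 belonged to the theta class, which acts on small halogenated and epoxide compounds. *Gstt1* (1418186_at) had signals of 2831, 2589 and 2373 in RT, 1395, 1054, 878 and 1118 in SV, and 861, 830, 707 and 935 in ST. RT lay above all other arrays, and SV overlapped ST. The log2 difference of RT from ST was 1.64 ± 0.16 (adjusted p = 9.20e-06).

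*Gstt3* (1423891_at) read 618, 611 and 455 in RT, 466, 306, 160 and 190 in SV, and 268, 137, 126 and 241 in ST. *Gstt2* (1417883_at) read 1327, 1417 and 1027 in RT, 784, 706, 294 and 656 in SV, and 610, 498, 254 and 452 in ST. In neither gene did RT overlap ST. The RT excess was 1.61 ± 0.36 for *Gstt3* (adjusted p = 0.00492) and 1.53 ± 0.34 for *Gstt2* (adjusted p = 0.00419). *Gstt4*, the remaining theta gene, was dim, and its difference of -1.39 ± 0.97 did not pass.

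The mu class, which conjugates epoxides and other electrophiles, held a gene on either side. *Gstm5* (1416842_at) showed 14291, 13099 and 5497 in RT, 6089, 4580, 2755 and 3049 in SV, and 3934, 3705, 2448 and 2795 in ST. The third RT array was lower than the first SV array but above all ST arrays. RT exceeded ST by 1.68 ± 0.34 (adjusted p = 0.00222), a call that was lost with the methods' t-test after adjustment (adjusted p = 0.0509). The third RT array also had the lowest sum of duct markers and of RT epithelium markers (31391 against 37889 and 44776), and the highest of Sertoli cell (84606 against 64102 and 70627), Leydig cell (43253 against 34901 and 33576), macrophage (24745 against 19117 and 18926) and myoid markers (13032 against 9272 and 9523). Its endothelial (5477 against 4441 and 4567), germ cell (3794 against 3383 and 3438) and erythrocyte sums (337 against 293 and 248) were the highest too. Of the endothelial markers, 4 of 7 were higher in RT than in ST. The part of these cell types in the spread was not tested.

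*Gstm6* (1422072_a_at) ran the other way, with 1812, 1757 and 3799 in RT, 6408, 5863, 8329 and 8318 in SV, and 10661, 7070, 8766 and 8865 in ST. RT was below every SV and ST array, again with the third RT array nearest to them. The log2 difference of RT from ST was -1.93 ± 0.25 (adjusted p = 7.98e-05). The other 5 mu genes lay between -0.57 (*Gstm7*, adjusted p = 0.0138) and 0.30 (*Gstm3*) and were not called.

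These GST genes are neighbours. In the RefSeq gene order *Gstm5*, *Gstm7*, *Gstm6*, *Gstm3*, *Gstm2*, *Gstm1* and *Gstm4* follow each other on chromosome 3 with no other protein-coding gene between them, and *Gstt3*, *Gstt1*, *Gstt4* and *Gstt2* do so on chromosome 10. In the mu cluster 1 of 7 genes was higher in RT and 1 lower, with *Gstm7* between the pair. In the theta cluster 3 of 4 genes were higher. Probe sets for near-identical relatives can bind each other's RNA, which the array names by the endings _s_at or _x_at. None of the 12 called genes rests on such a probe set, whereas those of *Gstm1* and *Gstm3* do.

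**Figure D3:**
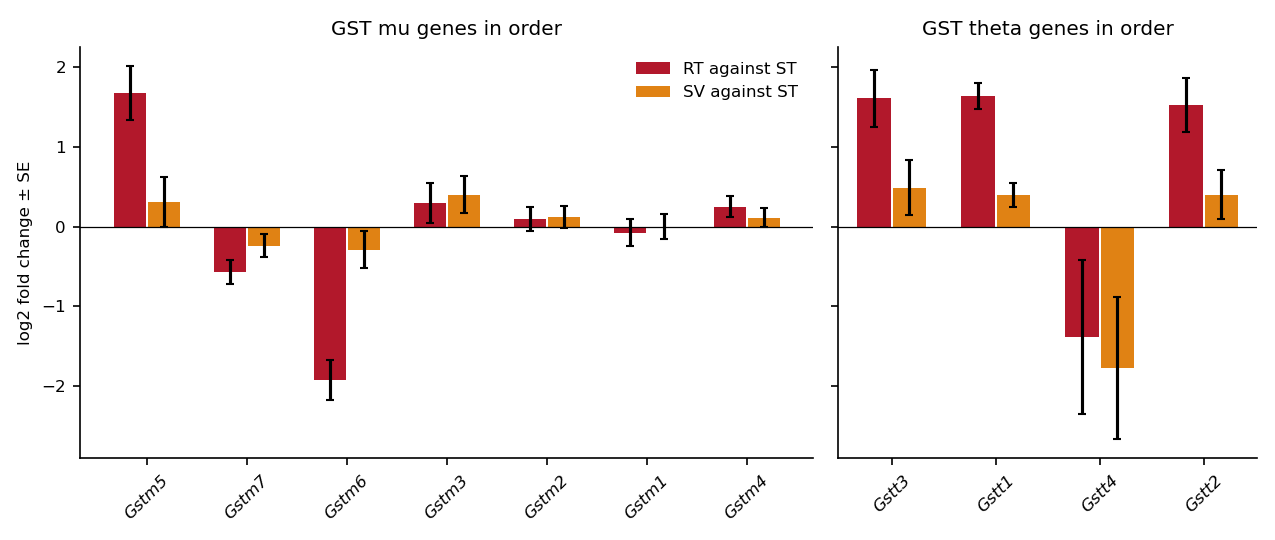
Log2 fold change with its limma standard error in RT against ST (red) and SV against ST (orange) for the GST mu genes of chromosome 3 and the GST theta genes of chromosome 10, in the order in which they lie, not to scale. *Gstm5* at 1.68 and *Gstm6* at -1.93 lie apart from mu genes near 0, and *Gstt3*, *Gstt1* and *Gstt2* reach 1.53 to 1.64 in RT with smaller bars in SV.

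The letters before the transcription starts of the gene with the largest difference and of 3 GST genes in these clusters are shown to let the neighbours be compared. Each is the 250 bases upstream of a RefSeq start in build GRCm38.p6, on the strand of the gene. They are *Gpx3* at chr11:54902604-54902853 on the plus strand, *Gstt1* at chr10:75797732-75797981 on the minus strand, *Gstm5* at chr3:107895604-107895853 on the plus strand, and *Gstm6* at chr3:107953467-107953716 on the minus strand, 1 of 3 starts listed for it. Capitals mark a match to TGACNNNGC, the core of the antioxidant response element that the factor Nrf2 binds.
Gpx3: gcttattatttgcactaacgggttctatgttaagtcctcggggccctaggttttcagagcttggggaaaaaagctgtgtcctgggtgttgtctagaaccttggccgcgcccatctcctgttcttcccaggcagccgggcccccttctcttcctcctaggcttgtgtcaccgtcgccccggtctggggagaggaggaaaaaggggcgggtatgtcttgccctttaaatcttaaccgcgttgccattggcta
Gstt1: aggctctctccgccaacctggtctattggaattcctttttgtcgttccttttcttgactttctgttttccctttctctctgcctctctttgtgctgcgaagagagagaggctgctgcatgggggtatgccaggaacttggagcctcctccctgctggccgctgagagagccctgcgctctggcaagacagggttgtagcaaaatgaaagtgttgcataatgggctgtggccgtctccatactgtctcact
Gstm5: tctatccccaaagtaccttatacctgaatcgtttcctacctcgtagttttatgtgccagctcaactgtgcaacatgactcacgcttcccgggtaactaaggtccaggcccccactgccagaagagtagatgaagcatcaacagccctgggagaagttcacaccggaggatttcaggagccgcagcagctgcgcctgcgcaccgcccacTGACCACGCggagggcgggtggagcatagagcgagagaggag
Gstm6: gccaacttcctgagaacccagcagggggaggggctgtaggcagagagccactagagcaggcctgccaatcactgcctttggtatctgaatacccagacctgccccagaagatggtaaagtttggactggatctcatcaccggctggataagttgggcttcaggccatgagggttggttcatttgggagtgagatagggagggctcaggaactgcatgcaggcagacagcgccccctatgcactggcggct
The core was found on either strand in 7 of the 41 genes whose promoter was in the table (17.1%) and in 11.5% of all 27025 genes there. It was present in 1 of 7 such genes higher in RT, *Gstm5*, at position -42 from the start, and in 0 of 3 lower in RT. The TATA box letters TATAAA were in 17.1% of the 41 genes and 14.3% of all, and AAGGTCA, the site of NR5A factors, in 4.88% and 4.7%. These are matches of letters in 250 bases only.

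The alpha and microsomal GSTs supplied the rest of the lower genes. *Gsta4* (1416368_at), whose enzyme clears 4-hydroxynonenal and other products of lipid peroxidation, had signals of 5781, 6400 and 7036 in RT, 13531, 14249, 15678 and 12011 in SV, and 17657, 17903, 15740 and 13727 in ST. RT was lower than all other arrays, and SV overlapped ST. The log2 difference of RT from ST was -1.34 ± 0.14 (adjusted p = 1.83e-05).

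*Gsta2* (1421040_a_at) had 2454, 3370 and 4263 in RT, 5057, 5776, 7998 and 5068 in SV, and 8820, 7707, 9342 and 9215 in ST. RT was again below every other array, at -1.42 ± 0.20 against ST on the log2 scale (adjusted p = 1.48e-04). *Gsta3*, the remaining alpha gene among the 47, differed by 0.21 ± 0.33. *Mgst3* (1448300_at), a membrane enzyme with transferase and peroxidase activity, had 769, 721 and 707 in RT, 975, 1326, 1764 and 1041 in SV, and 1923, 1784, 1690 and 1743 in ST. RT and ST did not overlap, and the difference was -1.29 ± 0.18 (adjusted p = 1.35e-04). A second, dim probe set of *Mgst3*, at 2.07 to 32.8 in the 11 arrays, gave -1.70 ± 0.83 and did not pass. *Mgst1* and *Mgst2* differed by 0.05 and -0.10. Of the markers given above, 8 of 14 of Sertoli cells, 3 of 7 of myoid cells and 3 of 10 of germ cells were lower in RT like these 4 genes, and 11 of 11 of the RT epithelium, 6 of 10 of the ducts and 4 of 7 of the endothelium were higher like the 8 others. The part of the cell mixture in these differences was not tested.

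Many families showed no call between RT and ST among their genes assessed here. These were GST pi, omega, zeta and kappa, peroxiredoxins, thioredoxin reductases, superoxide dismutases, enzymes of glutathione synthesis and reduction, and *Nqo1* with *Hmox1*. Past 2-fold at an unadjusted p under 0.05, limma and the methods' t-test both added *Gsto2* alone, at -1.16 ± 0.45 (adjusted p = 0.0757) with mean signals of 31.6 in RT and 69.6 in ST.

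*Gstp1*, the pi class enzyme, had signals of 11023, 9440 and 8334 in RT, 12397, 11708, 11404 and 9516 in SV, and 13025, 12947, 10056 and 10120 in ST. *Gsto1*, whose omega class enzyme reduces dehydroascorbate, had 1035, 1105 and 1066 in RT, 1626, 1626, 835 and 1126 in SV, and 724, 1135, 1052 and 1022 in ST. All 3 regions overlapped in both genes, with differences of RT from ST of -0.26 ± 0.15 and 0.14 ± 0.22.

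*Gstz1*, an isomerase of tyrosine breakdown, read 703, 688 and 761 in RT, 889, 847, 661 and 724 in SV, and 733, 821, 625 and 765 in ST. *Gstk1*, of mitochondria and peroxisomes, read 1480, 1581 and 1484 in RT, 2058, 1801, 828 and 1551 in SV, and 1265, 1229, 639 and 1046 in ST. *Gstz1* overlapped throughout at -0.03 ± 0.14, while the RT arrays of *Gstk1* were above its ST arrays without passing the test (0.58 ± 0.29, adjusted p = 0.169).

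Of the 3 peroxiredoxins with a probe set of their own, *Prdx2* and *Prdx3* were lower in RT by less than 2-fold. No other peroxiredoxin gene was assessed, so the family was covered only in part. *Prdx2*, the cytosolic form, had signals of 8737, 8930 and 9068 in RT, 13944, 14779, 14774 and 12010 in SV, and 14340, 12612, 14030 and 13014 in ST. RT was below all other arrays, at -0.60 ± 0.12 (adjusted p = 0.00235), which is under 2-fold. A second probe set of *Prdx2* (1430979_a_at) was called, at a mean signal of 1152 ± 257 in RT (SD, n = 3) and 3007 ± 194 in ST (SD, n = 4), a difference of -1.41 ± 0.17 (adjusted p = 4.60e-05). The size of the *Prdx2* difference thus depends on the probe set, and its direction does not. *Prdx3*, the mitochondrial form, was -0.49 ± 0.13 (adjusted p = 0.0138), and *Prdx4* of the endoplasmic reticulum -0.12 ± 0.10.

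Among the 34 further probe sets of the 47 genes, 32 gave the same call in RT against ST as the one chosen, the exceptions being those of *Prdx2* and *Mgst3*. *Txnrd1*, the cytosolic thioredoxin reductase, had 1694, 1661 and 1681 in RT, 1690, 1187, 1420 and 2089 in SV, and 1496, 1032, 1299 and 1738 in ST. Its regions overlapped. *Txnrd3*, which can also reduce glutathione and is known from the testis, was lower in RT, at -0.70 ± 0.18 (adjusted p = 0.0113), under 2-fold. *Sod1*, the cytosolic superoxide dismutase, had 14326, 11460 and 13359 in RT, 16280, 15778, 12092 and 12390 in SV, and 10229, 14077, 12146 and 11147 in ST. It overlapped too, and the 3 dismutases lay between -0.25 and 0.17 on the chosen probe sets. Dimmer probe sets were higher in RT without overlap, though under 2-fold. They gave 0.81 ± 0.19 for *Sod1* (1435304_at, adjusted p = 0.00635) and 0.61 ± 0.15 for *Sod2* (1454976_at, adjusted p = 0.00738). The remaining probe sets of both genes did not pass an adjusted p of 0.05.

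Glutathione synthesis and recycling were near level. *Gsr*, glutathione reductase, had 1574, 1284 and 1716 in RT, 2061, 1923, 2193 and 2206 in SV, and 1419, 1592, 1906 and 2097 in ST. The RT arrays were all below the SV arrays but overlapped ST. *Gclc*, the catalytic subunit of the rate-limiting ligase, was 0.51 ± 0.16 higher in RT (adjusted p = 0.0336), under 2-fold. That value rests on an _s_at probe set (1455959_s_at). The other *Gclc* probe set, 1424296_at, gave 0.27 ± 0.22 (adjusted p = 0.440), with RT and ST overlapping. *Gclm* and *Gss* differed by 0.24 and -0.40 without passing. *Hmox1*, which degrades haem and is a classical Nrf2 target, had 481, 528 and 629 in RT, 780, 728, 494 and 588 in SV, and 632, 677, 396 and 567 in ST. Its regions overlapped at -0.04 ± 0.21, and *Nqo1*, a quinone reductase of the same kind of control, gave 0.54 ± 0.24 (adjusted p = 0.119).

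**Figure D4:**
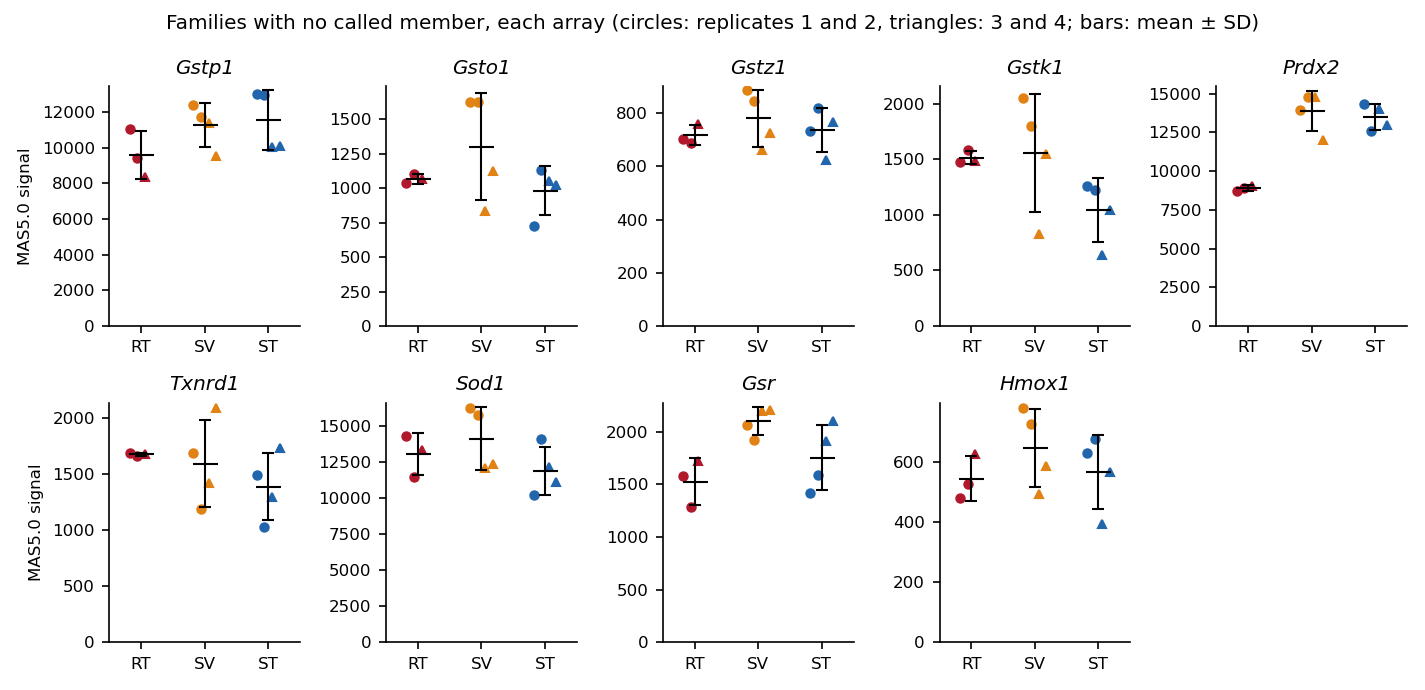
MAS5.0 signal on a linear axis from 0, by region, of the gene with the highest mean log2 signal in each of the 9 families without a call in RT against ST, with a point per array (circles for replicates 1 and 2, triangles for 3 and 4) and bars for the mean and SD. RT is clear of both other regions for *Prdx2* (8737 to 9068 against 12010 or more) and of ST for *Gstk1*, and elsewhere the RT and ST points overlap.

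SV differed little from ST. Of the 47 genes 2 were higher in SV (4.26%), against 2.39% of all genes, and 0 were lower, against 0.0769% of all genes. At an unadjusted p under 0.05 and past 2-fold, limma and the methods' t-test each gave 1 lower gene, the dim *Gpx6* (-2.14 ± 0.59, adjusted p = 0.0864). The median log2 difference was 0.19 over the 47 genes and 0.02 over all genes, and 34 of 47 differences were above 0. The RT arrays entered this fit only through the shared estimate of spread.

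The 2 genes that passed were the first 2 of RT against ST. *Gpx3*, with the signals given above, was higher in SV by 1.86 ± 0.26 (adjusted p = 0.00158), or 3.62-fold, without overlap and at 1.68 to 2.14 when any array was left out. That call was lost with the methods' t-test after adjustment (adjusted p = 0.117) and with replicates 3 and 4 only (1.67, adjusted p = 0.396). *Gpx8* was higher by 1.26 ± 0.30 (adjusted p = 0.0499) with overlap, since the third SV array (721) was under the first and second ST arrays (816 and 732). Its call was lost when any array but the third SV array was left out, at 1.03 to 1.43 in those fits. Both comparisons share the ST arrays.

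Each SV array can also be placed between the 2 other regions. Taking the ST mean as 0% and the RT mean as 100%, the SV mean lay at 11.6% to 56.1% for the 8 genes higher in RT, with a median of 22.5%, and at 24.3% to 51.7% for the 4 lower genes, with a median of 36.8%. Over all genes called between RT and ST the medians were 21.1% for 2272 higher and 39.3% for 1335 lower genes. *Cat*, *Gpx8* and *Gpx7* were farthest towards RT at 56.1%, 55.5% and 52.4%, and *Gstm5* had the lowest share at 11.6%. Single arrays weigh heavily here, since without the first SV array *Gstm5* came to 3.11%, *Gstt3* to 6.96%, *Gstt1* to 10.4%, *Gstt2* to 12.2% and the median of the 8 genes to 15%, while without the third SV array *Gstt2* came to 32.5%, *Gstm5* to 17.5% and that median to 33.6%. The third SV array had the lowest share for all 12 genes, below 0% for *Cat*, *Gstm5*, *Gstt2* and *Gstt3*, and over all 2272 higher genes its median was 6.21% against 19% to 32.1% in the other SV arrays. The same array had the lowest summed RT epithelium markers of the 4, at 4817 against 6053 to 11037, and also the lowest duct (1897 against 2576 to 4811), endothelial (1453 against 2380 to 3418), Leydig cell (28088 against 53823 to 68173) and macrophage sums (17824 against 21111 to 24559). Its Sertoli cell sum was the highest of the 4, at 141633 against 105874 to 124113. So were its germ cell sum (3392 against 1985 to 2830) and its erythrocyte sum (607 against 332 to 497). The part of the cell mixture in these positions was not tested.

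**Figure D5:**
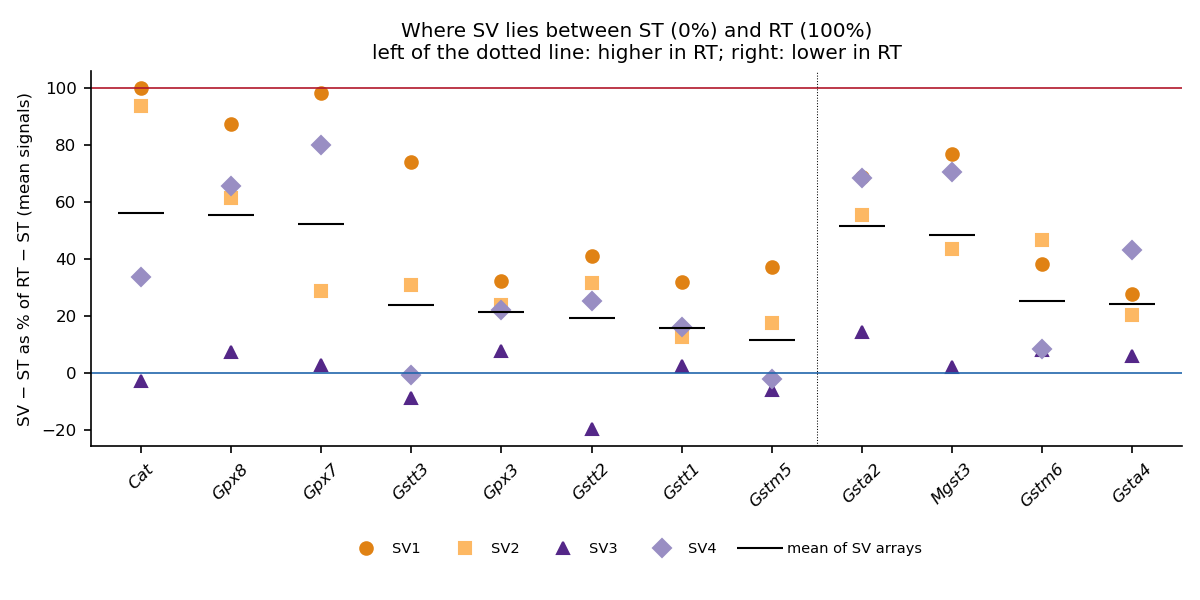
Position of each SV array between the ST mean (0%, blue line) and the RT mean (100%, red line) on the linear signal scale for the 12 genes called in RT against ST, with the mean of the 4 SV arrays as a black bar. The third SV array (dark triangle) is lowest for every gene and runs from -19.9% (*Gstt2*) to 14.3% (*Gsta2*), and the first SV array reaches 100% for *Cat*.

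Against RT, SV had 2 of 47 genes higher (4.26%), against 4.39% of all genes, and 4 lower (8.51%), against 6.41% of all genes. The higher genes were *Gstm6* at 1.64 ± 0.25 (adjusted p = 9.15e-04) and *Gsta4* at 1.11 ± 0.14 (adjusted p = 3.47e-04), in both of which the SV and RT arrays did not overlap. The lower genes were *Gpx3* at -1.94 ± 0.28 (adjusted p = 6.42e-04), *Gstm5* at -1.37 ± 0.34 (adjusted p = 0.0156), *Gstt1* at -1.24 ± 0.16 (adjusted p = 3.50e-04) and *Gstt2* at -1.12 ± 0.34 (adjusted p = 0.0407). Among these *Gstm5* overlapped between the regions, through the third RT array. All 6 were called in RT against ST as well, which shares the RT arrays.

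Several of these calls were close to the threshold. *Gstm5* was lost at -1.12 without the first RT array and at -1.18 without the second. With the methods' t-test after adjustment, *Gpx3* (adjusted p = 0.0630), *Gstm6* (adjusted p = 0.0651), *Gstm5* (adjusted p = 0.179) and *Gstt2* (adjusted p = 0.182) were lost. Without adjustment, as the study used it, that test lost none of the calls and gave 3 higher and 6 lower. After median centring *Gstt1* fell under 2-fold, at -0.93. *Gstt2* was lost without the first or the second RT array, the second or the fourth ST array, or the second, the third or the fourth SV array, at -1.23 to -0.80. *Gstt3*, at -1.12 ± 0.36 (adjusted p = 0.0578), passed with the replicate number as a block (-1.11, adjusted p = 0.00946) and without the first SV array (-1.40), and *Gsta2*, at 0.84 ± 0.20 (adjusted p = 0.0122), passed without the third RT array (1.03). Under 2-fold, *Mgst3* (0.76), *Prdx2* (0.63) and *Prdx3* (0.54) were also higher in SV at an adjusted p under 0.05. The second probe set of *Prdx2* was called here too, at 1.17 ± 0.17. With each array centred on its median 5 genes were higher and 1 lower, and with quantile normalization 3 and 4, while the share of higher among all called genes went from 40.7% to 67.9% and 51.9%.

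Genes that serve the same enzymes were compared through 6 lists of 100 genes, of which 92 had a probe set of their own. In RT against ST 14 of the 92 were higher and 7 lower, in SV against ST 2 were higher and none lower, and in SV against RT 4 were higher and 3 lower. For RT against ST that is 15.2% higher and 7.61% lower, against 12.5% and 7.34% of all genes, for SV against ST 2.17% higher against 2.39%, and for SV against RT 4.35% higher and 3.26% lower against 4.39% and 6.41%. These shares are near or under those of all genes, except for the higher genes of RT, which are slightly above. Single lists hold only 9 to 22 measured genes. Their counts and medians in RT against ST, given next, stand beside 12.5% higher, 7.34% lower and a median of 0.08 over all genes. Past 2-fold at an unadjusted p under 0.05, no lower gene was added in SV against ST, where limma gave 1 more gene, a higher one.

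Glutathione import, breakdown and export of conjugates had 4 of 22 genes higher in RT and 2 lower, with a median of 0.27. *Slc1a1*, a transporter of glutamate and cysteine, had a mean signal of 1221 ± 1.66 in RT (SD, n = 3), 227 ± 82.3 in SV (SD, n = 4) and 29.1 ± 22 in ST (SD, n = 4). It was higher by 5.77 ± 0.54 in RT (adjusted p = 7.94e-06) and by 3.25 ± 0.50 in SV (adjusted p = 0.00343), with ST arrays at 8.02 to 56.7, so low that the size of the difference is uncertain. *Anpep*, a peptidase that acts on the products of glutathione breakdown, was higher in RT by 2.53 ± 0.87 (adjusted p = 0.0491), a size that is likewise uncertain with ST arrays at 2.67 to 57.1. The conjugate exporters went opposite ways, *Abcc3* higher by 1.53 ± 0.25 (adjusted p = 4.47e-04) and *Abcc1* lower, at -1.51 ± 0.20 (adjusted p = 1.01e-04).

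Thioredoxins, glutaredoxins and repair enzymes had 2 of 20 genes higher and 1 lower in RT, with a median of 0.18. *Msra*, which repairs oxidised methionine, was higher by 1.74 ± 0.41, and *Srxn1*, which restores overoxidised peroxiredoxins, by 1.24 ± 0.22. *Sesn2*, a stress-induced sestrin, was lower, at -2.12 ± 0.20. In SV none of the 20 passed 2-fold with limma, at an unadjusted p under 0.05 as well.

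Among Nrf2 regulators and other targets 2 of 19 were higher and 3 lower in RT, with a median of 0.07. *Bach2*, a repressor that binds with small Maf proteins, was higher by 2.54 ± 0.19 in RT (adjusted p = 1.62e-06) and by 1.31 ± 0.18 in SV (adjusted p = 0.00134). *Cbr3*, a carbonyl reductase, was higher in RT by 1.20 ± 0.17. *Akr1b8*, an aldo-keto reductase, was lower, at -1.72 ± 0.17, and the small Maf gene *Maff* also, at -1.39 ± 0.25. The list thus held called genes on either side.

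Of 9 genes that supply NADPH, the reductant behind both glutathione and thioredoxin, *Idh2* alone was called, 1.40 ± 0.23 higher in RT, and the median was 0.68. Selenoprotein synthesis and uptake had 2 of 13 genes higher and 1 lower in RT, with a median of 0.14. The higher ones were *Lrp2*, or megalin, by 4.26 ± 0.74 (adjusted p = 7.51e-04), an uncertain size with ST arrays at 7.93 to 36.4, and *Selenow* by 1.59 ± 0.18 (adjusted p = 2.43e-05). The lower one was *Lrp8*, a receptor for selenoprotein P, at 446 ± 174 in RT (SD, n = 3) and 3483 ± 427 in ST (SD, n = 4), a difference of -3.03 ± 0.26 (adjusted p = 4.03e-06). *Lrp2* is also one of the duct markers. Of 9 oxidant producers 3 were higher in RT and none lower, with a median of 0.78, namely *Cyba*, a subunit of NADPH oxidase, by 1.08 ± 0.18, and the monoamine oxidases *Maoa* by 1.15 ± 0.23 and *Maob* by 1.23 ± 0.19. At an unadjusted p under 0.05 no further oxidant producer passed 2-fold with limma.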

How the data were processed

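RNA of RT, SV and ST pieces was measured on Affymetrix Mouse Genome 430 arrays. Per the labels and methods, the authors used the RNeasy Micro Kit for RNA, the GeneChip IVT Plus kit for labelling, and summarised the probes of each array to MAS5.0 signals. The deposited values are these intensity signals on a linear scale, scaled by the authors so that the mean without the lowest and highest 2% of values was 500.0 in every array, and array medians were 65.8 to 110.4. The number of arrays limits the precision. No pair of arrays held identical values.

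Log2 signals of all 11 arrays, with no filter or constant, were fitted with the limma package (3.58.1; lmFit and eBayes, trend on) under R 4.3.3 for RT against ST, SV against ST and SV against RT. Groups came from the sample labels. P-values were adjusted by Benjamini-Hochberg over 45101 probe sets, and a gene was called past 2-fold at an adjusted p under 0.05. Background shares count 18194 genes, with 1 probe set each. Names came from the array annotation (34958 probe sets with 1 symbol, 932 with several, 9211 with none), and all 81 probe sets of the 47 genes matched RefSeq by Entrez ID and symbol. Promoters of 41 genes came from RefSeq (GRCm38.p6); *Gclc*, *Gsr*, *Gsta4*, *Gstt2*, *Hmox1* and *Sod3* were not matched. Plots used matplotlib 3.10.9 under Python 3.11.15. The fit was tested on simulated data.

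Signals in every array are given for the called genes with the 6 largest differences in each direction in RT against ST and the 4 largest in SV against ST and SV against RT, and for the brightest gene of each family without a call; of other lists up to 4 called genes are named. Genes and lists were chosen with earlier results of these data known. The labels do not say that a replicate number marks the same testes. After region means were removed, arrays of the same number in different regions correlated at 0.069 to 0.190 over all probe sets and at 0.188 to 0.483 over 30084 with a mean of at least 50 in a region, where arrays of other numbers in the same pair of replicates (1 with 2, 3 with 4) correlated at 0.152 to 0.366. A fit with the number as a block was therefore an alternative. The other alternatives were the methods' t-test, fits of 2 regions, centring on array medians, quantile normalization, a floor of 32, log2(signal + 32), omission of probe sets under 50, no trend, a block for the pair of replicates, each pair alone, no fold threshold, the mean over probe sets, omission of _x_at and _s_at probe sets, and each array left out.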

Additional observations from a re-analysis of the deposited data

Results flagged for a closer look

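Among 94 groups of 4 arrays (47 genes in SV and in ST), 1 group held an array far from the others, or 1.06%, where chance alone marks about 5%. *Gstp3*, a second pi class GST gene, had a signal of 3.91 in the second ST array and of 44.9 to 65.9 in the other ST arrays. The signals of the gene were 2.17 to 65.9 over the 11 arrays, and it was not called in any of the 3 comparisons.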

How the results depend on the processing

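Over the 47 genes, 3 comparisons and all alternatives, 3693 results kept their call and direction, 65 lost a call, 37 gained one and none changed sign past the threshold. Counts of called genes moved as follows. With the methods' t-test after Benjamini-Hochberg adjustment, SV against ST had 0 higher (*Gpx3* and *Gpx8* both lost), and SV against RT 1 higher and 1 lower; unadjusted, SV against ST had 1 lower. With only the 2 regions compared, log2(signal + 32), a floor of 32 or no trend, SV against ST had 1 higher each time, the gene kept being *Gpx3*, and without the trend SV against RT had 2 lower. Median centring gave 7 lower in RT against ST, 1 higher in SV against ST, and 5 higher and 1 lower in SV against RT. With replicates 3 and 4 only, RT against ST had 3 higher and 1 lower, SV against ST 0 higher (*Gpx3* lost too), and SV against RT 0 higher and 0 lower; RT is then 1 array, assumed to vary like the other groups. Without the fold threshold, RT against ST had 8 lower and SV against RT 6 higher. The mean over probe sets gave 6 lower in RT against ST and 1 lower in SV against ST. Leaving out each array in turn gave 1 to 2 higher in SV against ST and 2 to 5 lower in SV against RT. The replicate block gave 7 higher and 4 lower in RT against ST, 2 higher and 0 lower in SV against ST, and 2 higher and 5 lower in SV against RT, and changed no other call than those of *Cat* and *Gstt3*; each array correlated best with its own number in another region in 15 of 20 cases. A block for the pair of replicates gave 7 higher and 4 lower in RT against ST, and 2 higher and 0 lower in SV against ST. In SV against RT it gave 2 higher and 5 lower. It too changed only the calls of *Cat* (0.95 in RT against ST) and *Gstt3* (-1.02 in SV against RT). The causes of these moves were not tested. Genes with signals under 50, such as *Gpx6*, allow no firm statement.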
